A study of Mus musculus with 6 samples.

Results

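The genes described here are the integrins, laminins and collagens, the cell surface receptors and the matrix proteins that epithelial cells stand on, in isolated intestinal crypts with and without Arid1a. They were found by name: a probe belonged to the group when the RefSeq symbol matched to its accession began as an integrin alpha or beta, a laminin alpha, beta or gamma, or a collagen chain. This gave 134 of 56605 probes and 86 genes. Of these, 45 probes and 35 genes passed a filter that asked for a signal well above the background of the array in 3 or more of the 6 samples, out of 26746 probes and 13492 genes that passed it in all. The name rule also took in 5 genes that encode no subunit of the families, of which 2 passed (Itgb1bp1 and Itgb3bp), so that 33 of 81 subunit genes were measured.

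All 6 samples carried Arid1a f/f, a pair of Arid1a alleles flanked by recombination sites, on a mixed strain background. The 3 knockout samples (Villin-Cre; Arid1a f/f) also carried Cre recombinase driven by the promoter of Villin, active in the epithelium of the intestine and not in the stroma, vessels or immune cells around it. The 3 control samples (Arid1a f/f) had no Cre. Age and sex are not given in the labels. Arid1a encodes a subunit of the BAF chromatin remodelling complex, and the study asked what its loss does to the crypts. Total RNA of every sample went on a one-colour array of its own. Nothing in the labels says that the 3 samples of a group are separate animals. The p-values thus cover the spread among these samples, which may be technical in part. Y-linked RNA was found in control 1 and not in controls 2 and 3, and in knockouts 1 and 3 and not in knockout 2. The samples of a group were therefore not all repeats of the same RNA.

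Integrins are receptors built of an alpha and a beta chain that hold a cell to the matrix or to another cell and carry signals both ways across the membrane. Under the intestinal epithelium lies a basement membrane of laminins and type IV collagen. Epithelial cells make part of its laminin chains, whereas most of its collagen comes from the mesenchyme, and leukocytes among the crypt cells carry integrin chains of their own.

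For knockout 2 the title and description name the knockout while source name and genotype name the control, and for control 3 the contradiction runs the other way. Groups follow title and description here. On the array of knockout 2 the Arid1a signal was 2.07 and on that of control 3 it was 4.01, each near the other arrays of the group so assigned (2.20 and 2.51 for the knockouts, 3.71 and 3.47 for the controls). The Arid1a difference was -1.47 ± 0.21 (adjusted p = 0.00733). It comes from a single probe, and the sources used here do not say whether that probe lies in the deleted part of the gene. The share of probes well above background ran from 41.7% to 54.7% of an array. Controls 1 and 2 and knockouts 1 and 2 shared slide 1 and a scan time, and control 3 and knockout 3 shared slide 2. RNA of Y-linked genes was found in control 1, knockout 1 and knockout 3, so that the sexes were not balanced between groups. All 9 epithelial markers, among them Epcam and Vil1, were measured, with 0 called by limma (2 at an unadjusted p under 0.05). Markers of stroma were measured in part: 3 of 9 for fibroblasts, 3 of 8 for smooth muscle, 0 of 5 for pericytes and 7 of 11 for endothelium passed the filter. Fbln1, Mfap4, Vim, Acta2, Actg2, Tagln, Egfl7 and Lyve1 were well above background on all 6 arrays. Not above background on any array were Pdgfra, Dcn, Lum and Ogn of fibroblasts, Myh11, Des, Cnn1 and Lmod1 of smooth muscle, Rgs5, Pdgfrb, Kcnj8 and Abcc9 of pericytes, and Cdh5, Kdr, Emcn and Cldn5 of endothelium.

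Values below are log2 processed signals minus the array's 75th percentile, so 0 is the signal that 75% of the probes on an array do not exceed, and the values of different probes are not set against each other. Differences are log2, knockout minus control, ± SE, with n = 3 arrays a group. Adjusted p-values are from limma with Benjamini-Hochberg adjustment over all 13492 genes, and a gene was called at an adjusted p under 0.05. In bulk RNA, fewer cells of a type and less RNA per cell cannot be told apart.

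Of the 35 measured genes, 3 rose in the knockout crypts (Itgav, Itgal and Itgb1bp1) and 2 fell (Col22a1 and Col18a1). That is 14.3% of them, against 14.9% of all genes tested, so the group as a whole was called about as often as any other genes. By direction, 7.28% of all genes tested were called higher and 7.63% lower. The groups did not overlap for 13 of the 35 genes (8 with every knockout array above and 5 with every knockout array below), against 39.7% of all genes. A difference of at least 2-fold was measured for 13 of the 35, a larger share than the 15.5% of all genes. The size of many of these differences depended on the background correction. With normexp background correction, Itgav (1.17), Itgb1bp1 (1.07) and Lamb3 (-1.88) alone of the 13 stayed at least 2-fold apart. The share of all genes at that size was not counted under normexp. The median difference was 0.07 over the 35 genes and -0.01 over all genes tested. The median over all genes moved to -0.26 when arrays were scaled on their median instead of the 75th percentile. With that scaling 1 of the 35 genes (Itgb1bp1) was called higher and 5 lower, against 4.16% and 10.3% of all genes.

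The counts depended on single arrays. The number called higher and lower was 1 and 1 without control 1, when 2.61% and 2.12% of all genes were called. It was 1 and 2 without control 2 (3.24% and 2.61% of all genes) and 2 and 2 without control 3 (3.42% and 2.69%). Without knockout 1 it was 5 and 5 (12.7% and 17.2%), without knockout 2 it was 1 and 1 (3.42% and 3.46%), and without knockout 3 it was 1 and 4 (4.91% and 5.86%). The share over all genes thus moved with the left-out array as well. Blocking on slide gave 2 higher (Itgal and Itgb1bp1) and 5 lower (Col22a1, Col18a1, Col17a1, Lamb1 and Lamb3), against 9.15% and 9.40% of all genes. Without knockout 2 and control 3 together limma called 0 and 0, with 7 and 4 at an unadjusted p under 0.05, and 1.31% and 1.06% of all genes were called.

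The families differed in how much of them was measured. Integrins were the most complete, with 19 of 26 genes, followed by laminins with 6 of 11, and collagens with 8 of 44. Of 11 fibrillar collagen genes 0 passed the filter, Col1a1 and Col3a1 among them, and Col1a2 was well above background on 1 control and 1 knockout array. None of 6 type IV genes (Col4a1 to Col4a6), the network-forming collagen of the basement membrane, passed it, and none of 6 type VI genes. Of the laminins, Lama1, Lama2, Lama4, Lamb2 and Lamc3 were not well above background on any array. Of the 51 genes that did not pass, 42 had no probe above background on any array, 6 on 1 array and 3 (Col1a2, Col25a1 and Itga9) on 2 arrays. For these genes the arrays give no difference. None of the 35 measured genes passed through the arrays of 1 group alone, and 23 were well above background on all 6 arrays. A refit on the genes above background on all 6 arrays called 4 of those 23 (Itgav, Itgb1bp1, Col7a1 and Col22a1), against 15.7% of 11969 genes of all kinds in that refit.

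**Figure D1:**
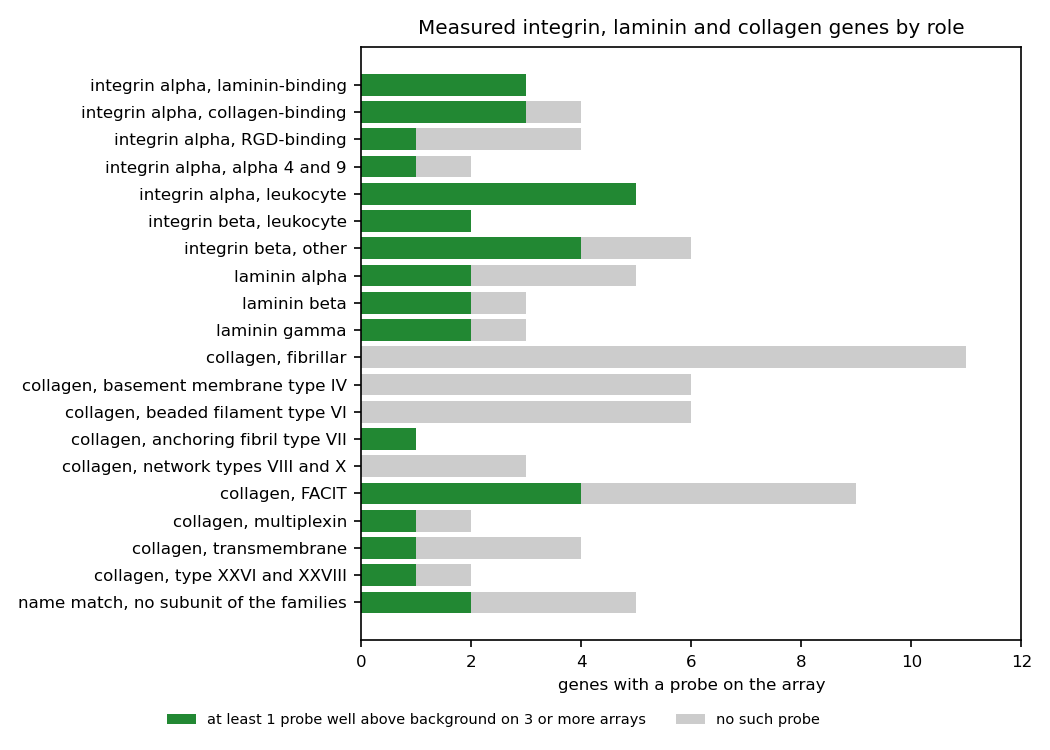
Number of genes with a probe on the array, by role; green is the part with a probe well above background on at least 3 of 6 arrays and grey the rest. All 5 alpha chains and both beta chains of leukocytes were measured, and 0 of 11 fibrillar, 0 of 6 type IV and 0 of 6 type VI collagen genes.

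Of the 19 measured integrin genes, 2 rose and 0 fell, which is 10.5% of them against 14.9% of all genes tested. Differences were positive for 13 and negative for 6, with a median of 0.20; with array median scaling 4 of the 13, Itga3, Itgb5, Itgb6 and Itgb7, turned negative. Itgav, the alpha chain that pairs with several beta chains and binds ligands with an arginine-glycine-aspartate motif, such as vitronectin and latent TGF-beta, was the only one of 4 genes of that ligand class that was measured. The Itgav signal was 1.81, 2.35 and 2.33 in controls 1 to 3 and 2.87, 4.08 and 3.37 in knockouts 1 to 3. Every knockout array lay above every control array, and the gap between knockout 1 and control 2 was smaller than the SD of the knockouts, 0.61. The difference was 1.27 ± 0.33, a 2.42-fold rise (adjusted p = 0.0482, 95% interval 0.48 to 2.07). Slide 1 gave 1.39 and slide 2 gave 1.04, and blocking on slide gave an adjusted p of 0.0619. The call rested on most arrays: the adjusted p was 0.159 without control 1, 0.106 without control 2, 0.107 without control 3, 0.102 without knockout 2 and 0.0915 without knockout 3. Leaving out knockout 2 and control 3, the arrays whose labels contradict each other, gave a difference of 1.04 (adjusted p = 0.196).

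Beta chains known to pair with Itgav gave other values. Itgb5 differed by 0.20 ± 0.36 (adjusted p = 0.716) and Itgb6, an epithelial beta chain, by 0.05 ± 0.24 (adjusted p = 0.904). Itgb3 and Itgb8 did not pass the filter. Itgb1, which pairs with most alpha chains, had a probe on each side of 0. Its brighter probe read 4.62, 4.37 and 4.49 in controls and 4.28, 4.23 and 4.14 in knockouts, and its dimmer probe read 1.82, 1.62 and 1.87 in controls and 1.93, 1.92 and 2.26 in knockouts. Each probe separated the groups without overlap, the brighter with the knockouts below and the dimmer with the knockouts above. The difference was -0.28 on the brighter and 0.27 on the dimmer probe, and with every probe tested on its own the adjusted p was 0.264 and 0.336, so that no direction can be given for Itgb1. Itga10, a collagen-binding alpha chain, was the other gene whose kept probes differed in sign, at -0.30 on the brighter and 0.65 on the dimmer probe (adjusted p = 0.743 and 0.256).

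The promoter of Itgav is shown because it is one of the 2 called subunit genes, of 4, for which the RefSeq table gave a sequence; Col22a1 and Itgal had no entry. It covers 250 bases before to 50 after the start in GRCm38.p6, chr2:83724147-83724446 on the plus strand, and capitals mark the GC box GGGCGG or its reverse complement CCGCCC.
Itgav: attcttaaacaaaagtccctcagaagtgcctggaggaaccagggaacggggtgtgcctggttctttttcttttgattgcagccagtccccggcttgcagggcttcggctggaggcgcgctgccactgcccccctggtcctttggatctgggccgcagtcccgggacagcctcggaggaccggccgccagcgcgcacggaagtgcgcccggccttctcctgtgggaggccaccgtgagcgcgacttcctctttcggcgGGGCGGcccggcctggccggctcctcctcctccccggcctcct
For Col18a1, the other gene with a sequence, the table gives 2 starts, both on the minus strand: chr10:77113656-77113955 for start 1 and chr10:77166481-77166780 for start 2.
Col18a1, start 1: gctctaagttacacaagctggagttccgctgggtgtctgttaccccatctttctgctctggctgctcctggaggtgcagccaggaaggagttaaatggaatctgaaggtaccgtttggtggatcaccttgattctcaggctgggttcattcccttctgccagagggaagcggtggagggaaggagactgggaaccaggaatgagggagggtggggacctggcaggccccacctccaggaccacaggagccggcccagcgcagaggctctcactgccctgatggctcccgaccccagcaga
Col18a1, start 2: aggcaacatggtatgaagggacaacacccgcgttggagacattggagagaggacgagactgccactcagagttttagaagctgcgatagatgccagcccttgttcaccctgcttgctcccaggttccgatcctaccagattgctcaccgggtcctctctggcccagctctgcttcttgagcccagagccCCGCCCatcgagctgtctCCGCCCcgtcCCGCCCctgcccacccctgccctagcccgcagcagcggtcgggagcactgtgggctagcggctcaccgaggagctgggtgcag
The Itgav promoter holds 1 GC box and start 2 of Col18a1 holds 3, while start 1 of Col18a1 holds 0. GC boxes on either strand are found in 35.7% of all 32851 RefSeq promoters of the same length of 300 bases. GC content was 67.3% for Itgav, above 86.2% of all promoters, and 59.7% and 63.3% for starts 1 and 2 of Col18a1, with a median of 52.7% over all. The letters GGAATG, the TEAD motif, matched at 2 places in start 1 of Col18a1 (14.7% of all promoters hold a match), and CCAAT at 1 place in start 2 (37.4% of all). The TATA box TATAAA (13.6% of all), the AP-1 motif TGANTCA (7.81% of all) and the interferon response element (3.44% of all) matched in none of the 3 windows. All motifs were searched on both strands, none of these letter strings contains another, and a match describes the letters only.

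Among laminin receptors, Itga6 and Itgb4, which together form the integrin of the hemidesmosome, were bright on every array. Itgb4 read 4.30, 4.45 and 4.71 in controls and 4.73, 5.03 and 5.25 in knockouts. The groups did not overlap, by a margin of hundredths between control 3 and knockout 1, and the difference was 0.52 ± 0.20 (adjusted p = 0.125). Without knockout 1, when 12.7% of all genes were called higher, the adjusted p was 0.0490. Leaving out any other single array gave no call of Itgb4. Itga6 read 6.78, 6.61 and 7.07 in controls and 6.73, 7.06 and 7.45 in knockouts, with overlap. Its difference was 0.26 ± 0.23 (adjusted p = 0.454), and all 3 of its probes gave positive differences, at 0.26, 0.35 and 0.22. Itga3, a laminin receptor chain of epithelia that pairs with Itgb1, differed by 0.09 ± 0.23 (adjusted p = 0.812). Itga7, a laminin receptor chain best known from muscle, read -0.96, -0.33 and -0.89 in controls and -3.32, -1.53 and -2.04 in knockouts. Every knockout array was below every control array, yet the spread of the knockouts was wide: the difference was -1.57 ± 0.46 (adjusted p = 0.0638). Without knockout 1, when 17.2% of all genes were called lower, the adjusted p was 0.0358. Leaving out any other single array gave no call of Itga7.

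Collagen-binding alpha chains gave no call. Itga1 differed by 0.40 ± 0.16 with every knockout array above (adjusted p = 0.133). Itga2, the collagen receptor chain of many epithelia, differed by -0.85 ± 0.44 with overlap (adjusted p = 0.212). Without knockout 1, when 17.2% of all genes were called lower, Itga2 differed by -1.25 (adjusted p = 0.0487). Leaving out any other single array gave no call of Itga2. The Itga2 signal was above background on 3 control and 2 knockout arrays. With normexp background correction the Itga2 difference was -0.04 (adjusted p = 0.854). Itga11 did not pass the filter. Itga4, which pairs with Itgb1 or Itgb7 and binds Vcam1 and Madcam1 on vessels, differed by 0.87 ± 0.34 (adjusted p = 0.127), with signal above background in 1 control and 2 knockouts.

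Leukocyte integrins were measured in full, 5 alpha chains and 2 beta chains, and 1 of the 7 rose, against 7.28% of all genes tested. Itgal, which forms the adhesion receptor LFA-1 with Itgb2 and binds ICAM proteins, read -3.51, -3.39 and -2.59 in controls and -2.28, -1.97 and -1.67 in knockouts. All knockout arrays were above all control arrays, and the signal was well above background on 1 of 3 control and 3 of 3 knockout arrays. The difference was 1.19 ± 0.29, a 2.29-fold rise (adjusted p = 0.0415, 95% interval 0.49 to 1.89), at 1.33 on slide 1 and 0.92 on slide 2. The adjusted p was 0.143 without control 1, 0.126 without control 2, 0.112 without knockout 2 and 0.0972 without knockout 3. With normexp background correction the difference was 0.56 (adjusted p = 0.0519). Leaving out knockout 2 and control 3 together, the arrays whose labels contradict each other, gave 1.48 (adjusted p = 0.0948).

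Other leukocyte chains were not called. Itgb2, the partner of Itgal, read -4.38, -3.18 and -3.00 in controls and -2.17, -3.20 and -2.36 in knockouts, where knockout 2 lay among the controls. Its difference was 0.94 ± 0.44 (adjusted p = 0.177). Itgae, the alpha chain of intraepithelial lymphocytes that binds E-cadherin, read -2.44, -0.57 and -0.34 in controls and 0.31, -1.38 and 0.11 in knockouts. Control 1 was lowest and knockout 2 lay between the controls, and the difference was 0.80 ± 0.67 (adjusted p = 0.426). Itgb7, its partner, differed by 0.07 ± 0.23 on its brighter probe (adjusted p = 0.855). The dimmer probe of Itgb7 read -2.84, -0.80 and -0.49 in controls and 0.28, -0.82 and 0.63 in knockouts, with control 1 lowest and knockout 2 among the controls, as for Itgae. That probe differed by 1.41 ± 0.67 (adjusted p = 0.202 with every probe tested on its own).

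Itgam, Itgax and Itgad are alpha chains of myeloid cells that pair with Itgb2. Itgam differed by 0.69 ± 0.39 (adjusted p = 0.249) on a probe that was bright on every array, at 5.69 to 7.55. Its other probe was well above background on 1 of 6 arrays, and whether the bright probe reads Itgam RNA of myeloid cells was not tested. Itgax differed by -1.23 ± 0.80 (adjusted p = 0.313). Itgad read -3.96, -3.11 and -3.77 in controls and -4.26, -5.64 and -4.59 in knockouts. These groups did not overlap, but the signal was above background on 2 control arrays and 1 knockout array. The Itgad difference was -1.22 ± 0.40 (adjusted p = 0.0870). Without knockout 1, when 17.2% of all genes were called lower, the adjusted p was 0.0393. Leaving out any other single array gave no call of Itgad. With normexp background correction the Itgad difference was -0.11 (adjusted p = 0.597).

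Markers of lymphocytes also varied between these arrays. All 10 T cell and intraepithelial lymphocyte markers passed the filter, 9 with positive differences, and 1 of them, Thy1, rose by 1.92 (adjusted p = 0.0209). Their summed signal, in units of the 75th percentile, ranged from 35.2 to 123.3 in controls and from 48.0 to 125.5 in knockouts, mostly Gzma; without Gzma the sums were 4.65 to 12.8 and 6.77 to 20.0. Relative to the control mean, the average log2 signal of the 10 markers was -0.95, 0.43 and 0.52 in controls and 1.43, 0.04 and 1.38 in knockouts, low in control 1 and high in knockouts 1 and 3. Of 5 pan-leukocyte markers 4 passed and limma called 0 (0 at an unadjusted p under 0.05), with signals summed over the whole list of 1.33 to 3.77 in controls and 2.69 to 6.60 in knockouts (0.792 to 2.24 and 1.49 to 3.79 without Coro1a). Of 9 myeloid markers 5 passed, Cd68 rose and Lyz2, which Paneth cells also express, fell; the sum over the whole list was 9.66 to 11.9 in controls and 5.45 to 16.9 in knockouts (4.58 to 8.99 and 3.49 to 3.53 without Cd14), and Adgre1, C1qa and C1qc were not above background on any array. Of 6 B and plasma cell markers 2 passed and limma called 0 (1 at an unadjusted p under 0.05). The part of leukocyte number in the Itgal difference was not tested.

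**Figure D2:**
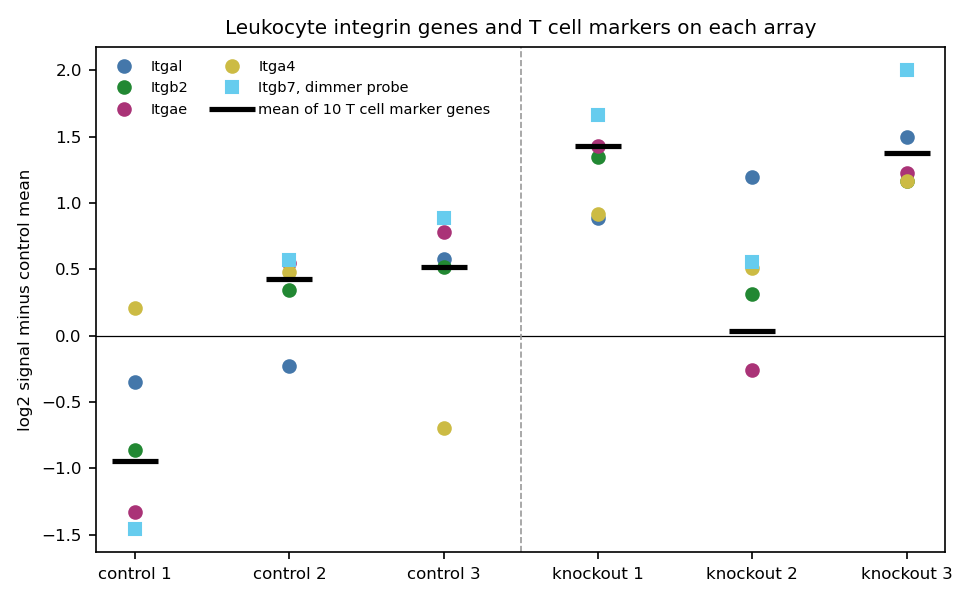
Log2 signal minus the control mean on each of the 6 arrays for 4 integrin genes (circles) and the dimmer probe of Itgb7 (squares), with the mean over 10 T cell marker genes as a black bar. The marker mean was -0.95 in control 1 and 1.43 and 1.38 in knockouts 1 and 3. In knockout 2, Itgal and Itga4 alone of the 5 were above their own highest control, at -1.97 against -2.59 and -3.26 against -3.30. Of the 10 markers, Thy1 and Cd8b1 alone were above their own highest control in knockout 2.

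Of the 6 measured laminin genes limma called 0 (1 at an unadjusted p under 0.05), against 14.9% of all genes tested. The median difference of the 6 laminin genes was -0.61. Lama3 and Lamb3 are chains of the laminin that anchors hemidesmosomes. Lamb3 read 1.81, 1.35 and 3.16 in controls and -0.79, -1.44 and 1.59 in knockouts. Both slide 1 knockouts were below every control, while knockout 3 exceeded control 2, and on each slide the knockouts were below the controls of that slide. The difference was -2.32 ± 0.84 (adjusted p = 0.106, 95% interval -4.31 to -0.33), the largest in size of the 35 genes. Slide 1 gave -2.70 and slide 2 gave -1.57. Lamb3 was called in a fit that blocked on slide (adjusted p = 0.0118), as it was without knockout 3 (-3.22, adjusted p = 0.0204). A second probe of Lamb3 differed by -2.36. Leaving out knockout 2 and control 3 together gave a difference of -1.18 (adjusted p = 0.466).

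Lama3, the alpha chain of that laminin, read -1.71, 0.11 and -0.59 in controls and -2.80, -2.52 and -0.16 in knockouts. Its groups overlapped and its slides disagreed, at -1.86 on slide 1 and 0.43 on slide 2, and the difference was -1.10 ± 0.77 (adjusted p = 0.347). A second Lama3 probe differed by -1.79.

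Lama5, Lamb1 and Lamc1 form the main laminin of the adult intestinal basement membrane. Lamb1 read -1.94, -1.84 and -3.93 in controls and -3.37, -3.04 and -6.77 in knockouts, where both slide 2 arrays were lowest in their group. The difference was -1.82 ± 1.07 (adjusted p = 0.265), with -1.32 on slide 1 and -2.84 on slide 2, and Lamb1 was called in a fit that blocked on slide (adjusted p = 0.0244). The Lamb1 signal was above background on 3 control and 2 knockout arrays. With normexp background correction its difference was -0.29 (adjusted p = 0.443). A second kept probe of Lamb1 differed by -0.93 ± 1.21. Lama5 differed by -0.13 ± 0.37 (adjusted p = 0.826) and Lamc1 by 0.27 ± 0.25 (adjusted p = 0.469), and neither of these was called.

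Of the 8 measured collagen genes, 2 fell and 0 rose, with 4 differences of each sign and a median of -0.21. That is 25% of only 8 genes, against 14.9% of all genes tested, and whether these shares differ was not tested. Col22a1, a fibril-associated collagen known from tissue junctions such as that of muscle and tendon, read -1.23, -1.38 and -0.99 in controls and -3.17, -2.96 and -2.51 in knockouts. The arrays of each group lay close together and the groups were well apart, above background on all 6 arrays. The difference was -1.68 ± 0.22, a 3.20-fold fall (adjusted p = 0.00596, 95% interval -2.20 to -1.16). Slide 1 gave -1.76 and slide 2 gave -1.52. Col22a1 was called in the fit that blocked on slide (adjusted p = 0.00363) and without each array in turn (0.00541 to 0.0305). Leaving out knockout 2 and control 3 together gave -1.54 (adjusted p = 0.0959). With normexp background correction the Col22a1 difference was -0.79 (adjusted p = 0.0135), still called but smaller in size and outside the interval of the main fit. A second Col22a1 probe was not above background on any array.

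Col18a1, a basement membrane collagen whose end fragment is endostatin, read -2.00, -2.37 and -1.27 in controls and -3.16, -3.74 and -3.53 in knockouts. Every knockout array was below every control array, and the signal was above background on 3 control and 2 knockout arrays. The difference was -1.60 ± 0.31, a 3.02-fold fall (adjusted p = 0.0210, 95% interval -2.34 to -0.85), with -1.26 on slide 1 and -2.26 on slide 2. The adjusted p was 0.0701 without control 1 and 0.0699 without knockout 2. With normexp background correction the difference was -0.52 (adjusted p = 0.0777), and leaving out knockout 2 and control 3 together gave -1.16 (adjusted p = 0.131). Col15a1, the other gene of its class, did not pass the filter.

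Col7a1 forms the anchoring fibrils that tie the basement membrane to the tissue below, and Col17a1 is a transmembrane collagen of the hemidesmosome. Col7a1 read -2.29, -1.10 and -1.10 in controls and -0.39, -0.21 and -0.15 in knockouts. The knockouts were close together and above every control, while control 1 lay apart from the other controls, and the difference was 1.24 ± 0.34 (adjusted p = 0.0534). Without knockout 2 and control 3 together it was 1.42 (adjusted p = 0.199). Col17a1 read -3.13, -2.48 and -2.01 in controls and -4.70, -4.23 and -3.00 in knockouts, so that knockout 3 lay just above control 1. Its difference was -1.44 ± 0.48 (adjusted p = 0.0894), and it was called when slide was a block (adjusted p = 0.0242) and without knockout 3 (-1.93, adjusted p = 0.0262). The Col17a1 signal was above background on 3 control arrays and 1 knockout array. With normexp background correction its difference was -0.32 (adjusted p = 0.244). Leaving out knockout 2 and control 3 together gave -1.05 (adjusted p = 0.414).

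Among the other collagens, Col26a1 differed by 0.73 ± 0.22, with every knockout array above (adjusted p = 0.0682), and was above background on 1 control and 3 knockout arrays. Without knockout 1, when 12.7% of all genes were called higher, the adjusted p of Col26a1 was 0.0228. Leaving out any other single array gave no call of it. The fibril-associated Col16a1 differed by -0.69 ± 0.32 (adjusted p = 0.176), Col20a1 by 0.50 ± 0.62 (adjusted p = 0.592) and Col9a2 by 0.27 ± 0.17 (adjusted p = 0.288). Col20a1 and Col9a2 were above background on 2 control and 3 knockout arrays. With normexp background correction the Col26a1 difference was 0.37 (adjusted p = 0.167).

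**Figure D3:**
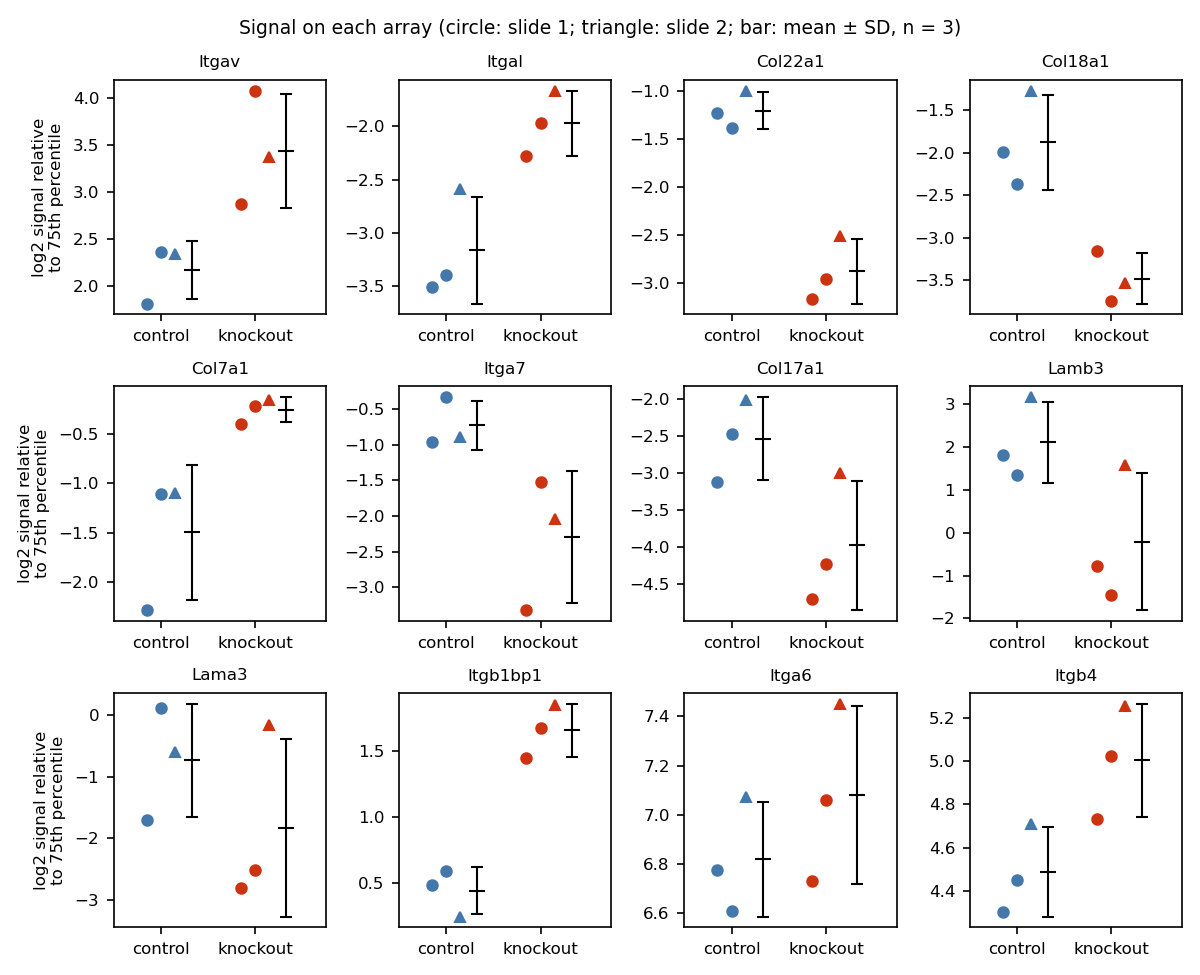
Log2 signal, with the 75th percentile of each array at 0, for 12 genes on the 6 arrays, controls in blue and knockouts in red, with circles for slide 1, triangles for slide 2 and bars for mean ± SD (n = 3); each panel has its own scale. Itgav and Itgal were higher and Col22a1 and Col18a1 lower on every knockout array, while for Lamb3 knockout 3, at 1.59, exceeded control 2, at 1.35.

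The 2 name matches that encode no subunit were Itgb1bp1 and Itgb3bp. Itgb1bp1, a cytoplasmic protein that binds the tail of the beta chain Itgb1, read 0.48, 0.59 and 0.24 in controls and 1.44, 1.67 and 1.85 in knockouts. The groups were far apart beside their spread, and the difference was 1.22 ± 0.18, a 2.32-fold rise (adjusted p = 0.00890, 95% interval 0.79 to 1.64). Slide 1 gave 1.02 and slide 2 gave 1.60, and Itgb1bp1 was called without each array in turn (adjusted p = 0.00739 to 0.0428). Leaving out knockout 2 and control 3 together gave 1.11 (adjusted p = 0.123). Itgb3bp, a nuclear protein of the centromere, differed by -0.53 ± 0.38 (adjusted p = 0.354).

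**Figure D4:**
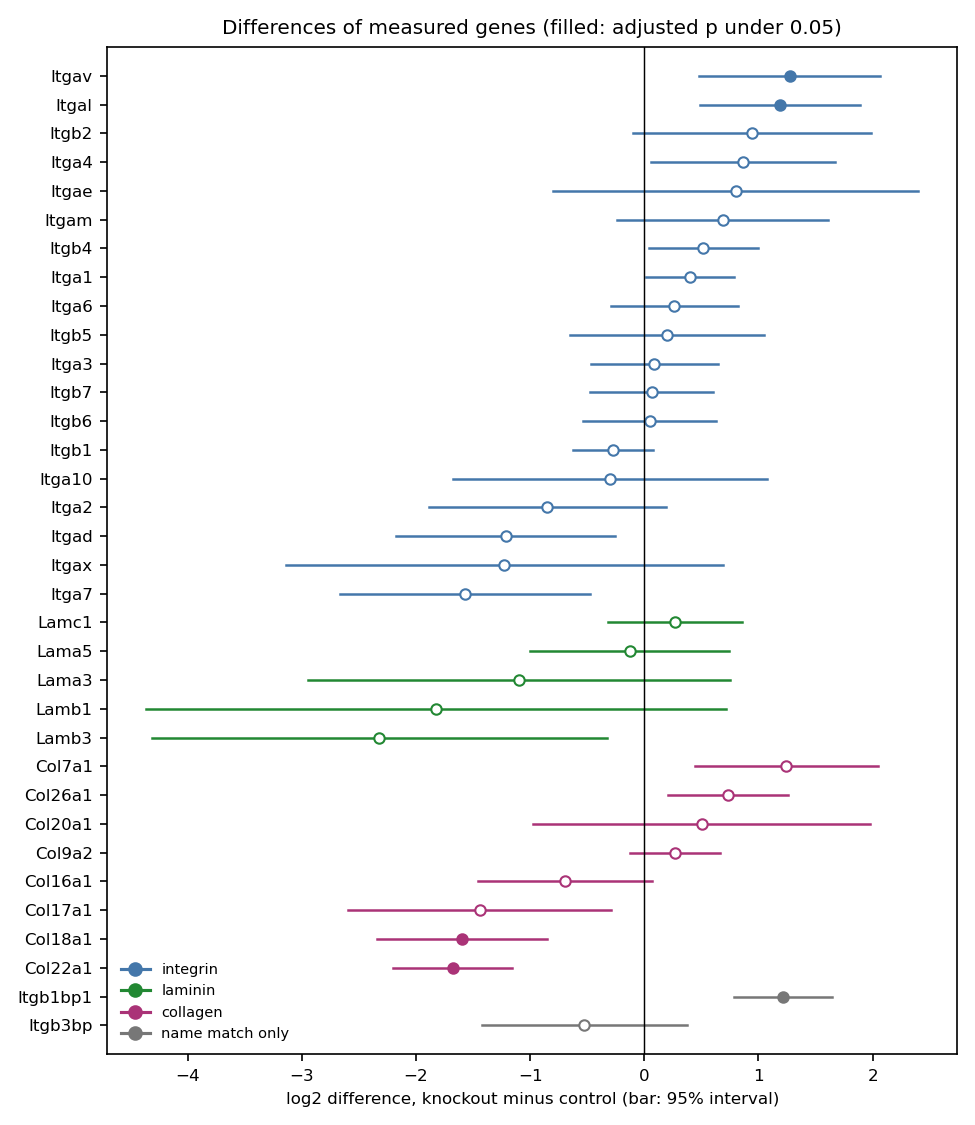
Log2 difference, knockout minus control, of the measured genes reported, with 95% intervals from limma; filled points have an adjusted p under 0.05, and colours mark the families. Filled points are Itgav, Itgal and Itgb1bp1 to the right and Col18a1 and Col22a1 to the left of 0, and the widest intervals belong to Lamb1, Lamb3, Itgax and Lama3.

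Where a gene had several probes, the choice of probe mattered for some. Of the genes with more than 1 kept probe, Itgb1 and Itga10 had probes of opposite sign. For Itgb7 the probes had the same sign and differences of 0.07 and 1.41.

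**Figure D5:**
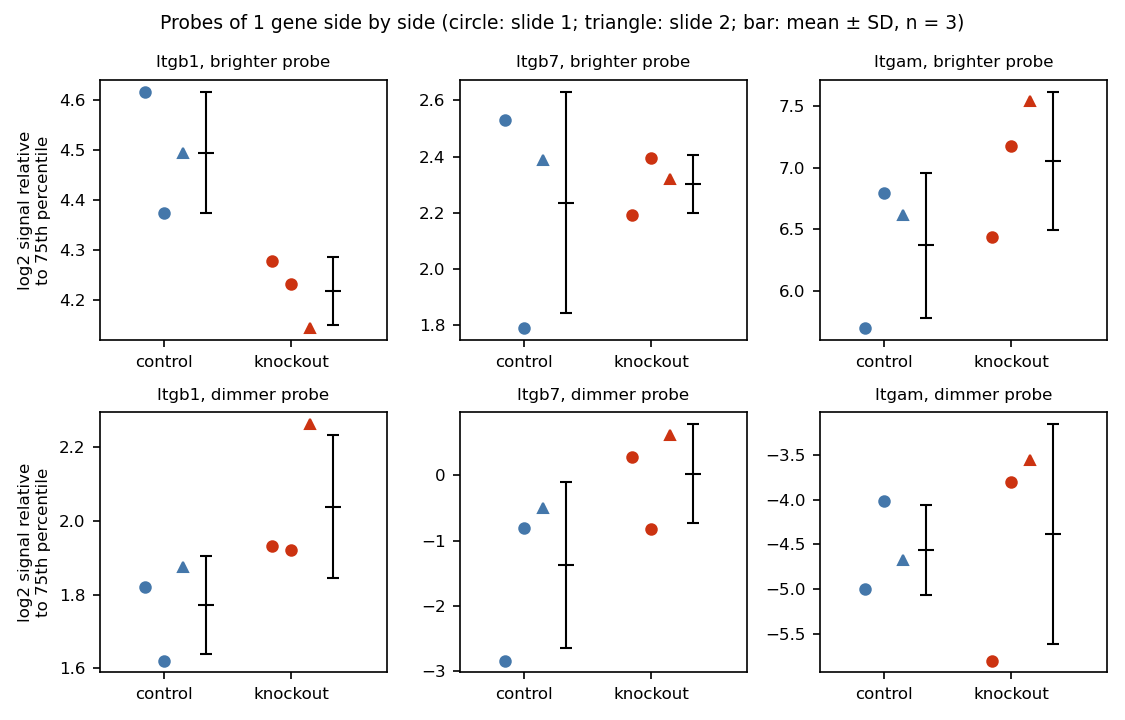
Log2 signal of a brighter and a dimmer probe of Itgb1, Itgb7 and Itgam on each array, controls in blue and knockouts in red, with circles for slide 1, triangles for slide 2 and bars for mean ± SD (n = 3). The knockouts lie below the controls on the brighter and above them on the dimmer probe of Itgb1; the dimmer probe of Itgam was well above background on 1 array.

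Genes that work with these families were counted from lists of the pathway. Beside the counts here and in the next paragraph stand 7.28% of all genes called higher and 7.63% called lower. Of 27 genes of the integrin adhesion complex on the inner side of the membrane, such as talin and vinculin, 21 were measured and limma called 0 (4 at an unadjusted p under 0.05), with a median of 0.09. Of 7 hemidesmosome partners 6 were measured, with a median of 0.38, and 1 rose. This was Dst, which encodes a plakin, from a mean of 1.19 in controls to 2.29 in knockouts (adjusted p = 0.0226). Plec, which encodes the plakin plectin, differed by 0.29 ± 0.32 and was not called (adjusted p = 0.545). Of 15 other basement membrane genes 8 were measured, with a median of 0.17. Tinagl1 rose by 1.32 (adjusted p = 0.0434), and Fras1, whose product sits at the epithelial basement membrane, was at least 2.21-fold lower (adjusted p = 0.00319) since it was not above background on any knockout array. Of 14 other matrix receptors 8 were measured, with a median of -0.09, and Ddr1, a collagen-activated receptor kinase of epithelia, rose by 0.83 (adjusted p = 0.0401).

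Among ligands and enzymes, calls went both ways. Of 23 integrin ligands outside the 3 families 9 were measured, with a median of -0.35, and 2 fell and 0 rose. Mfge8, a secreted ligand of Itgav-containing integrins, read 4.46, 4.09 and 3.98 in controls and 2.35, 1.16 and 1.31 in knockouts. All knockouts were below all controls, and the difference was -2.57 ± 0.34 (adjusted p = 0.00598). Tgfbi, a matrix protein that binds integrins, fell by 0.87 (adjusted p = 0.0418). Fn1, Vtn, Spp1 and Tnc, further ligands, were not above background on any array, nor were Vcam1 and Madcam1. Of 25 matrix proteases and inhibitors 8 were measured, with a median of 0.52. Of these, 2 rose (Plaur, the urokinase receptor, by 2.56, and Ctsk, a collagen-cutting cathepsin, by 1.44) and 2 fell. Mmp7, a protease of Paneth cells, fell by 2.74 (adjusted p = 0.0398), and Mmp15, a membrane-bound protease, fell by 2.71 (adjusted p = 0.000487). Of 29 collagen-modifying genes 14 were measured, with a median of 0.08, and 1 fell. This was Colgalt1, which adds galactose to collagen and fell by 0.89 (adjusted p = 0.0489).

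Markers of stroma and vessels were measured to different extents. Sums over a list weight its brightest genes, so each is also given without its brightest gene. Of 9 fibroblast markers 3 passed the filter and limma called 0 (1 at an unadjusted p under 0.05), with a signal summed over the whole list, in units of the 75th percentile, of 9.87 to 12.6 in controls and 5.40 to 9.57 in knockouts. Most of that was Fbln1; without it the sums were 1.30 to 1.33 and 1.30 to 2.08. Of 8 smooth muscle markers 3 passed and Acta2 rose by 0.91 (adjusted p = 0.0478), with sums of 38.1 to 59.7 and 59.9 to 97.2, or 11.7 to 20.7 and 14.9 to 28.7 without Acta2. Of 11 endothelial markers 7 passed: Lyve1 rose by 4.64 and Esam was at least 2.62-fold lower, with sums of 1.91 to 2.20 and 6.83 to 17.8. The knockout sums were mostly Lyve1, and without it the sums were 1.43 to 1.77 and 1.54 to 2.37. None of 5 pericyte markers passed the filter, and 1 of 5 glial markers did. The summed epithelial markers ranged from 1411 to 1857 in controls and from 1643 to 2462 in knockouts, and without Krt8 from 977 to 1255 and from 1126 to 1577. Whether stromal cells had a part in the collagen differences was not tested.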

How the data were processed

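Cy3-labelled RNA of 3 control and 3 knockout samples was measured on 6 one-colour Agilent arrays, per the labels. The deposited scanner files hold spot intensity from Agilent's scanner software, Feature Extraction. Its version is 12.0.3.1 in the files, per the file headers, whereas 11.5.1.1 is named, per the submitters' processing notes. The processed intensity is background-subtracted within an array and not scaled between arrays, per the file headers. The log2 values in the authors' deposited table are on the same 75th percentile scale, centred on each probe's median. Its columns' medians were 0.196, 0.0606 and -0.322 (controls 1, 2, 3) and -0.0717, 0.214 and -0.183 (knockouts 1, 2, 3), and it was used as an alternative alone.

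Here, control and outlier spots were left out, spots of a probe averaged, and log2 signals set against each array's 75th percentile, which lay at a signal of 205 to 295. No spot was saturated. Precision is limited by the number of arrays. Names came from RefSeq accessions (GRCm38.p6): 33767 of 56605 received a symbol and 22838 did not. Probes above background on at least 3 arrays were kept, and the brightest probe stood for each of 13492 genes. Where a group was not above background on any array, "at least N-fold" compares the mean of the bright group with a floor for the dim one, which on each array is the dimmest signal still well above background, or the probe's own signal if that is higher. The fit was limma 3.58.1 (R 4.3.3), two-sided, with group as the only term and Benjamini-Hochberg adjustment; the script was tested on simulated data.

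The genes and lists were chosen with earlier results of these data known. Named by rule were Arid1a, all called members, uncalled members with a log2 difference of at least 1 in size, members whose probes differ in sign, a set of members by role, and up to 4 called genes of each list; other members are named too. A few genes under this rule are not reported here. The settings varied were the grouping labels, blocks for replicate number or slide, slide 1 alone, the background correction, scaling, filter, probe choice, variance model, thresholds, array weights, the deposited table, and leaving out single arrays. Normexp (offset 50) used median signals, since no mean signal was analysed. A block for sex was added after seeing the data.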

Additional observations from a re-analysis of the deposited data

How the results depend on the processing

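With the main settings 3 of the 35 genes were called higher and 2 lower by limma with Benjamini-Hochberg adjustment. The counts were 0 and 0 when groups followed source name and genotype (2 and 1 at an unadjusted p under 0.05). That grouping called 0 of all 13492 genes in either direction. The counts were also 0 and 0 without knockout 2 and control 3 together, the arrays with contradicting labels (7 and 4 at an unadjusted p under 0.05). In that fit 1.31% and 1.06% of all genes were called. Counts higher and lower, with the shares of all genes called in brackets, were 2 and 5 with slide as a block (9.15% and 9.40%), 1 and 3 on slide 1 alone (2.36% and 2.74%), 1 and 5 with array median scaling (4.16% and 10.3%), 1 and 1 without the filter on dim probes (86 genes; 1.56% and 1.41%) and 3 and 1 with genes above background on all 6 arrays (23 genes; 7.66% and 8.09%). They were 1 and 2 with every probe tested on its own (5.85% and 4.51%), 10 and 11 with array weights (25.9% and 26.7%), 1 and 1 at an adjusted p under 0.01 (2.14% and 1.66%), and 2 and 2 with the percentile over probes detected on all arrays (7.05% and 8%). Both counts stayed at 3 and 2 with normexp, quantile normalization, the mean of the probes, trend and robust eBayes, the deposited table, the 2-fold threshold and sex as a block, where shares over all genes were 4.83% to 8.49% higher and 4.77% to 8.72% lower. The genes behind these equal counts were not always the same. Under normexp, quantile normalization, trend and robust eBayes and sex as a block, Col7a1 was called higher in place of Itgal. Under normexp, Itga7 was also called lower in place of Col18a1. Leaving out each array in turn gave 1 to 5 higher (2.61% to 12.7%) and 1 to 5 lower (2.12% to 17.2%).

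The replicate block gave 4 higher and 6 lower (9.85% and 10.4% of all genes). Same-numbered arrays correlated at 0.246, 0.080 and 0.352 in their deviations from the group means, so the numbers were not taken to pair the samples. Every array nonetheless correlated best with its own number, a hint from the data alone. Control 3 and knockout 3 were also the only arrays of slide 2, so number and slide cannot be told apart for that pair.

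The calls of Itgav and Itgal each held under fewer alternatives than they were lost under. Itgav was lost in 14 of 25 and Itgal in 14 of 24, Col18a1 was lost in 7 and turned in 1 of 24, Itgb1bp1 was lost in 3 and Col22a1 in 2 of 25. Col7a1, not called in the main fit, was called in 7 of 25 alternatives. Among them its adjusted p was 0.0351 with sex as a block and 0.0340 with the replicate block.

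Directions turned with source name and genotype as groups for Col17a1 (0.040), Col18a1 (0.049), Col20a1 (-0.42), Col26a1 (-0.047), Itga1 (-3.05e-05), Itga10 (0.86), Itga2 (0.12), Itgad (0.033), Itgax (1.07), Lama3 (0.18) and Lamb3 (0.75). Without the contradicting arrays they turned for Itga10 (0.42), on slide 1 alone for Itgb6 (-0.063), with array median scaling for Itga3 (-0.16), Itgb5 (-0.048), Itgb6 (-0.20) and Itgb7 (-0.18), with the mean of the probes for Itga10 (0.17), with array weights for Itgb6 (-0.0081) and Lama5 (0.10), and with sex as a block for Lama5 (0.094). Leaving out single arrays turned Col20a1 (-0.056 to 1.06), Itgb6 (-0.14 to 0.18), Itga3 (-0.053 to 0.28), Itgb7 (-0.16 to 0.21), Lama5 (-0.46 to 0.17), Itga10 (-0.92 to 0.22) and Itgb5 (-0.12 to 0.56). The cause was not tested.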
